A study of Mus musculus with 6 samples.

Results

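The 10 genes described here encode neuronal intermediate filament proteins and markers of retinal ganglion cells, the neurons of the retina whose axons form the optic nerve. They are Nefl, Nefm, Nefh, Ina, Prph, Sncg, Rbpms, Pou4f1, Pou4f2 and Thy1, chosen by symbol from the 35850 genes of the deposited table, and all 10 were listed. Poly(A) RNA from optic nerve was sequenced in 6 libraries for a study of obesogenic diet, maternal by the series title, in mice that form Nf1 optic glioma. All mice were 6 weeks old and carried the genotype GFAP-Cre; Nf1-Flox/R681X: 1 floxed Nf1 allele, the other Nf1 allele bearing R681X, and a GFAP-Cre transgene, expressed by astrocytes and by precursors of glia and some neurons. The control group (3 libraries) had the PicoLab 5053 diet and the obesogenic group (3 libraries) a sucrose-containing AIN-76A diet in which fat supplied 58% of energy. No group lacked the Nf1 alleles or Cre, so the libraries show the diet only within this genotype. Whether each library is a separate animal or litter is not in the labels, so the p-values cover only the spread among these 6 samples, and that spread may be technical.

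Neurofilaments are the intermediate filaments of mature axons. The light, medium and heavy chains (Nefl, Nefm, Nefh) assemble with alpha-internexin (Ina), and in some neurons with peripherin (Prph), and their amount sets axon calibre. Retinal ganglion cells keep their nuclei and most of their messenger RNA in the retina, so a dissected optic nerve holds their axons but not their cell bodies. Pou4f1 and Pou4f2 encode the Brn3 transcription factors of these cells, Rbpms an RNA-binding protein used to label them, Sncg gamma-synuclein and Thy1 a cell surface glycoprotein. Rbpms is also made by pericytes and smooth muscle, Thy1 by fibroblasts and T cells and Sncg by adipocytes, so none of these 3 is specific to neurons in a whole tissue.

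Promoter sequences are shown first, for genes that the values below set apart: Ina, high in 2 obesogenic libraries, Prph, high in 1, Sncg, close to its control level in 1 of those, and Pou4f2, near 0 throughout. RefSeq promoter sequences (GRCm38.p6) matched 5 of the 10 genes, and the 250 bases before the start of transcription are printed 5′ to 3′ on the strand of the gene for 4 of them. Capitals mark matches on either strand to 4 motifs. The TATA box, where the basal transcription machinery binds, was searched as TATAAA. The GC box, bound by Sp family factors, was searched as GGGCGG. An E box, bound by basic helix-loop-helix factors, was searched as CAGCTG. The cyclic AMP response element was searched as TGACGTCA. Neighbouring capitals can be overlapping matches. The windows are chr19:47014431-47014680 (plus strand) for Ina, chr15:99054924-99055173 (plus strand) for Prph, chr14:34374670-34374919 (minus strand) for Sncg, chr8:78436648-78436897 (minus strand) for Pou4f2.
Ina: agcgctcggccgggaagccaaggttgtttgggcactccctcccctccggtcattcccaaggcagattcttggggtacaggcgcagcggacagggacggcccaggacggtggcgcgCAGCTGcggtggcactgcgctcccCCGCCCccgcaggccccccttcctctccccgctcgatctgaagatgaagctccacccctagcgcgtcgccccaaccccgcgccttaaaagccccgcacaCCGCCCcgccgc
Prph: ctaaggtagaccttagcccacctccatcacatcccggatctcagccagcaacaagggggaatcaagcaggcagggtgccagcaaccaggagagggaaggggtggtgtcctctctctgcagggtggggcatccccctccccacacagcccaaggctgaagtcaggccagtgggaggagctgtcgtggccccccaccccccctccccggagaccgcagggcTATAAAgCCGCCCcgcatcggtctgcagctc
Sncg: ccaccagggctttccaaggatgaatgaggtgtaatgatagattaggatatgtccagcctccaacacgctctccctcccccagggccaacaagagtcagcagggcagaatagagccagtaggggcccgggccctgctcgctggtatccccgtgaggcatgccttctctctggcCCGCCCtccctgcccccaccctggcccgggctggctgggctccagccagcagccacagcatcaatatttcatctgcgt
Pou4f2: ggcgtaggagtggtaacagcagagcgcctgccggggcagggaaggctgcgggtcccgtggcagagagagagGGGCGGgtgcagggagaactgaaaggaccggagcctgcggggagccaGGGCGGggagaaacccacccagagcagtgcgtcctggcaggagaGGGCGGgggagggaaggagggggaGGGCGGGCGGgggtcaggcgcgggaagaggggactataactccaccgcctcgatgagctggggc
Prph held 1 TATAAA match, starting 31 bases before the start, and 1 GC box. Ina held 2 GC boxes and 1 E box, Sncg 1 GC box and Pou4f2 5 GC boxes. Over 27025 RefSeq promoters of the same length, 13.0% held TATAAA, 32.9% a GC box, 12.8% the E box and 1.62% the cyclic AMP element. These matches are letters and no measure of binding. On the RefSeq chromosome order Nefl and Nefm lie side by side, with 1 pseudogene between their starts.

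Obesogenic library 2 stood apart from the others. Immunoglobulin genes took 20.6% of the listed TPM of obesogenic library 2 and at most 0.0439% of any other library, and since TPM values share a fixed total, other genes have lower values there. Between 13824 and 14514 genes reached 1 TPM in each library.

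The light chain gene Nefl (ENSMUSG00000022055) measured 13.8, 10.9 and 27.5 TPM in control libraries 1, 2 and 3 and 38.3, 9.12 and 149.9 TPM in obesogenic libraries 1, 2 and 3. TPM, a transcript's share of the library, divides reads by transcript length, so levels of different genes can be compared. Obesogenic libraries 1 and 3 were above every control library and obesogenic library 2 was below every one, so the groups overlapped. The group means were 17.4 ± 8.89 and 65.8 ± 74.3 TPM (SD, n = 3), and the log2 change was 1.19 (SE 0.90, 95% interval -0.91 to 3.30; limma adjusted p = 0.685). A log2 change is obesogenic minus control on the log2(TPM + 1) scale, which understates changes of low genes, and adjusted p-values are Benjamini-Hochberg values over 14364 genes.

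Nefm (ENSMUSG00000022054), the medium chain gene, was the lowest of the 3 neurofilament chains in control nerve, at 1.11, 0.927 and 2.08 TPM. It measured 5.72, 1.21 and 24.2 TPM in obesogenic libraries 1, 2 and 3. Obesogenic library 2 lay inside the control range and the others above it (log2 change 1.63, SE 0.82, adjusted p = 0.516). The heavy chain gene Nefh (ENSMUSG00000020396) measured 3.12, 4.59 and 7.40 TPM under control diet, against 9.94, 2.72 and 22.4 TPM under obesogenic diet. Its obesogenic values straddled the control range on both sides (log2 change 0.77, SE 0.66, adjusted p = 0.727).

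Ina (ENSMUSG00000034336), the filament subunit of neurons that comes on before the neurofilament triplet in development, measured 5.79, 5.14 and 10.8 TPM under control diet, against 36.0, 7.91 and 77.2 TPM under obesogenic diet. Only obesogenic library 2 lay within the control range. The log2 change of 1.90 (SE 0.74, 95% interval 0.16 to 3.65) was the largest of the 7 members tested, and it did not pass over all genes (limma adjusted p = 0.431, unadjusted p = 0.0365). Prph (ENSMUSG00000023484), typical of peripheral neurons and of a subset of central neurons, was at 0.148, 0.637 and 0.603 TPM in control. It was at 0.472, 0.866 and 10.7 TPM in obesogenic libraries, so obesogenic libraries 2 and 3 were above the control range, library 3 by far the more. Prph did not reach 1 TPM in 3 libraries and was not tested.

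**Figure D1:**
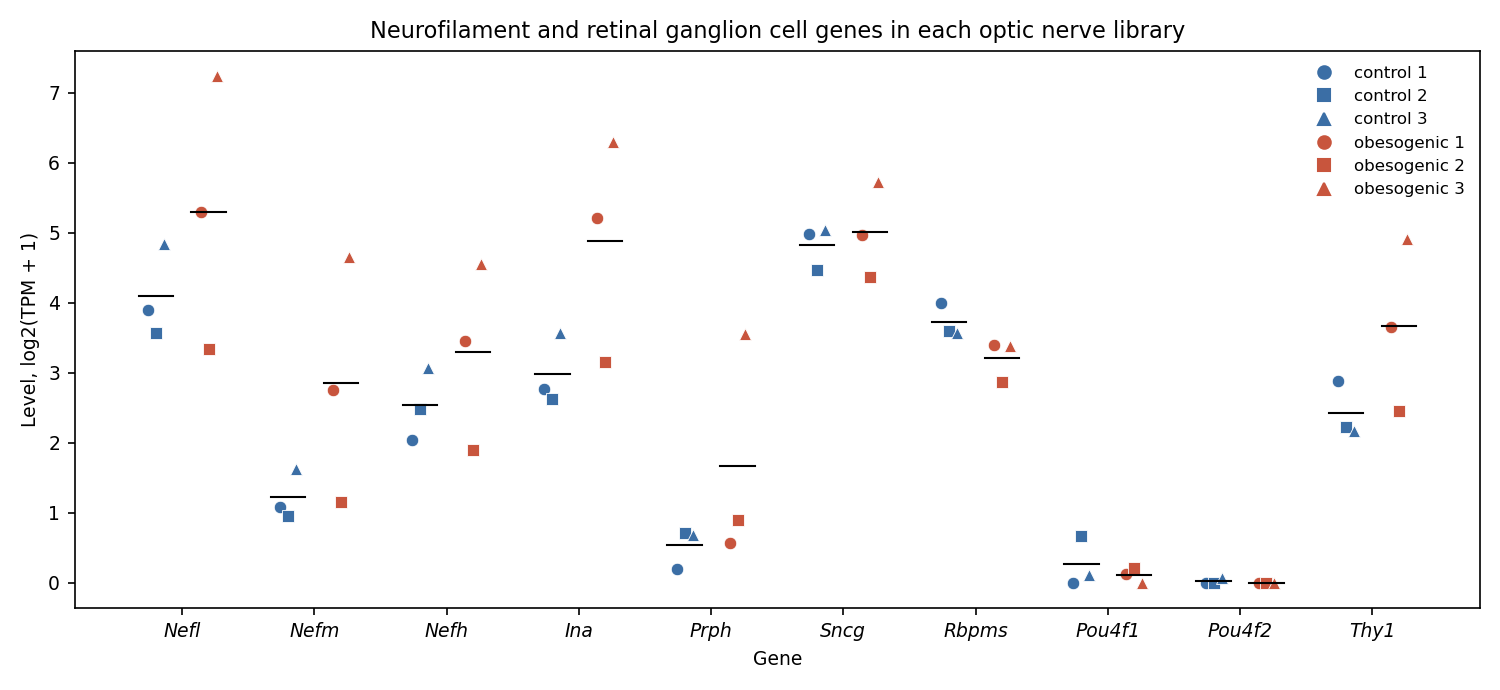
Level of each gene as log2(TPM + 1) in every library; colour gives the diet, marker shape the library number, and black bars the mean of the log2 values. Nefl reached 149.9 TPM in obesogenic library 3 and 9.12 TPM in obesogenic library 2, while Pou4f1 and Pou4f2 lay near 0 in every library.

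The transcription factors of retinal ganglion cells were close to 0. Pou4f2 (ENSMUSG00000031688) was listed at 0 in 5 libraries and at 0.0468 TPM in control library 3. Pou4f1 (ENSMUSG00000048349) was at 0, 0.592 and 0.0787 TPM under control diet, against 0.083, 0.152 and 0 TPM under obesogenic diet. Its value in control library 2 came from Pou4f1-202, a transcript annotated as processed and not coding. Neither gene was tested, and obesogenic library 3, the highest for every filament gene, was listed at 0 for both. TPM keeps no depth, so these values do not set an upper limit on either gene.

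Sncg (ENSMUSG00000023064) was the most abundant of the 10 genes in control nerve. It measured 30.6, 21.0 and 31.8 TPM under control diet, against 30.2, 19.5 and 51.8 TPM under obesogenic diet. Obesogenic library 1, where Ina was 4.97 times its control mean, had Sncg inside the control range, obesogenic library 2 was below it and obesogenic library 3 above it. The log2 change was 0.19 (SE 0.37, 95% interval -0.67 to 1.05, adjusted p = 0.891).

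Thy1 (ENSMUSG00000032011) measured 6.40, 3.67 and 3.47 TPM under control diet, against 11.6, 4.48 and 29.1 TPM under obesogenic diet. It followed the filament genes, with obesogenic libraries 1 and 3 above the control range and obesogenic library 2 inside it (log2 change 1.25, SE 0.61, adjusted p = 0.507). T cells are another source of Thy1. Summed TPM of 9 T cell genes was 167 in obesogenic library 2, against 6.20 to 12.6 in control libraries, 4.03 in obesogenic library 1 and 8.70 in obesogenic library 3. The part of T cells in the Thy1 values was not tested.

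Rbpms (ENSMUSG00000031586) was the 1 gene whose libraries did not overlap between diets. It measured 15.0, 11.1 and 10.8 TPM under control diet, against 9.49, 6.26 and 9.36 TPM under obesogenic diet, lower with the obesogenic diet, with means of 12.3 ± 2.31 and 8.37 ± 1.83 TPM. The log2 change of -0.51 (SE 0.28, 95% interval -1.17 to 0.15) did not pass (adjusted p = 0.558). Of all genes tested, 7.45% had every obesogenic library below every control library and 8.88% every one above, so 1 of 7 is near that background. Its paralogue Rbpms2, from the list of other ganglion cell genes, had the same order, at 15.9, 18.8 and 17.2 TPM under control diet, against 10.8, 6.31 and 10.3 TPM under obesogenic diet (log2 change -0.88, SE 0.28, adjusted p = 0.35). Summed TPM of 11 pericyte and smooth muscle genes was 795.5 or more in each control library and 435 to 453 in obesogenic libraries, also without overlap, and Pdgfrb of that list was listed at 0 in every library. The part of these cells in the Rbpms values was not tested. In whole tissue, fewer cells of a type and less RNA per cell cannot be told apart.

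Over all genes tested, the limma fit called 1 of 14364 (0.00696%), the gene model Gm9836, named after its value was seen, and 0 of the 7 members tested. At an unadjusted p under 0.05, 11.0% of all genes passed, and of the members Ina did. Of the 7, 6 had a positive log2 change and their median was 1.20, against a median of 0.08 and 57.7% positive over all genes. The filter of 1 TPM in at least 3 libraries kept these 7 and left out Prph, Pou4f1 and Pou4f2. The calls depended on obesogenic library 2. Without it the fit called 914 genes (6.36%), and Ina passed with a log2 change of 2.77 (SE 0.42, adjusted p = 0.0242). In that fit Nefl (2.17, adjusted p = 0.0918), Nefm (2.49, adjusted p = 0.0596), Nefh (1.47, adjusted p = 0.111) and Thy1 (1.86, adjusted p = 0.062) had log2 changes that did not pass, nor did Sncg or Rbpms. A fit that weights libraries by their spread (limma array weights) called Ina, Nefm and Thy1, with 2064 genes called in all (14.4%). Without obesogenic library 3 the log2 changes of Nefl, Nefm, Nefh, Ina and Thy1 were 0.22, 0.73, 0.14, 1.20 and 0.63, and that of Sncg was -0.16.

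**Figure D2:**
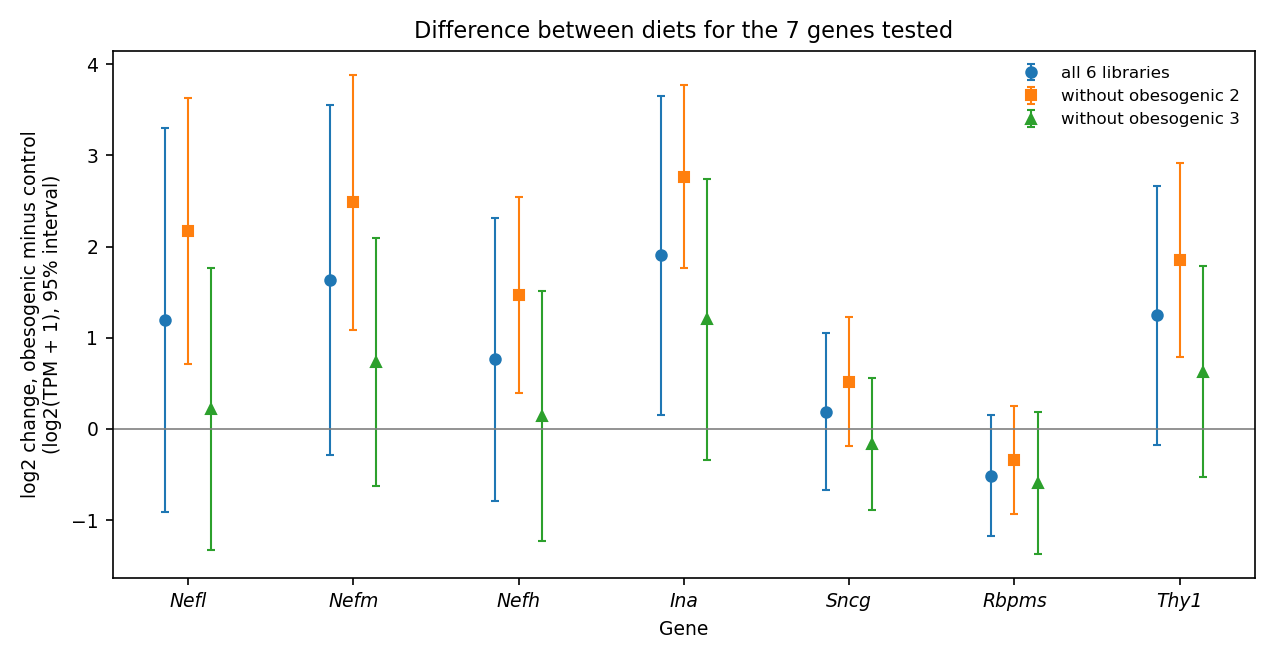
Log2 change (obesogenic minus control, log2(TPM + 1)) with its 95% interval from limma for the 7 genes tested, over all 6 libraries and without obesogenic library 2 or 3. For Ina the change is 1.90 over all libraries, 2.77 without obesogenic library 2 and 1.20 without obesogenic library 3.

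Leaving out immunoglobulin genes changed where obesogenic library 2 stood. With each library rescaled to the same total without them, Nefl in that library was 13.8 against 13.6 to 34.1 in control, and Nefh 4.12 against 3.90 to 9.17. Ina was 12.0 against 6.45 to 13.4, and Thy1 6.77 against 4.30 to 7.99. After this rescaling Nefl, Nefm, Nefh, Ina, Sncg and Thy1 all lay inside the control range in obesogenic library 2. Rbpms, at 9.47 against 13.4 to 18.7, was still below it.

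The proportions of several filament subunits did not overlap between diets, obesogenic library 2 included. The deposited total of the subunits in obesogenic library 2 was close to that of control library 2. Immunoglobulin genes lower the TPM of other genes in obesogenic library 2, so this closeness depends on the scaling. A ratio of 2 genes within a library does not depend on how the library is scaled. The ratio of Nefm to Nefl was 0.0801, 0.0854 and 0.0757 in control and 0.149, 0.133 and 0.161 in obesogenic libraries, 1.83-fold higher on average. All 3 obesogenic libraries lay above all 3 control libraries, with a spread within each diet (SD 0.00483 and 0.0144) well below the gap. The ratio of Ina to Nefl was 0.42, 0.473 and 0.392 in control and 0.94, 0.867 and 0.515 in obesogenic libraries, 1.75-fold higher and again without overlap. Relative to Nefm, Nefh was lower, at 2.82, 4.95 and 3.55 in control and 1.74, 2.25 and 0.927 in obesogenic libraries. The ratio of Nefh to Ina was 0.706 ± 0.178 under control and 0.304 ± 0.036 under obesogenic diet (SD, n = 3), also without overlap. Nefh to Nefl and Nefm to Ina overlapped between diets. These 6 ratios were chosen after the values were seen. All are built from Nefl, Nefm, Nefh and Ina, so they are not independent and the 4 without overlap are not 4 separate results. The share of other gene pairs whose ratios do not overlap was not computed. Of single genes, 8.88% had every obesogenic library above every control library and 7.45% every one below. Each of the 4 ratios without overlap had an exact two-sided permutation p of 0.1 (0.15 adjusted over the 6). That is the smallest value that 3 libraries against 3 can give, so the design cannot take these ratios below 0.05. Nefm in control was near 1 TPM, and without depth its counting error is unknown.

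**Figure D3:**
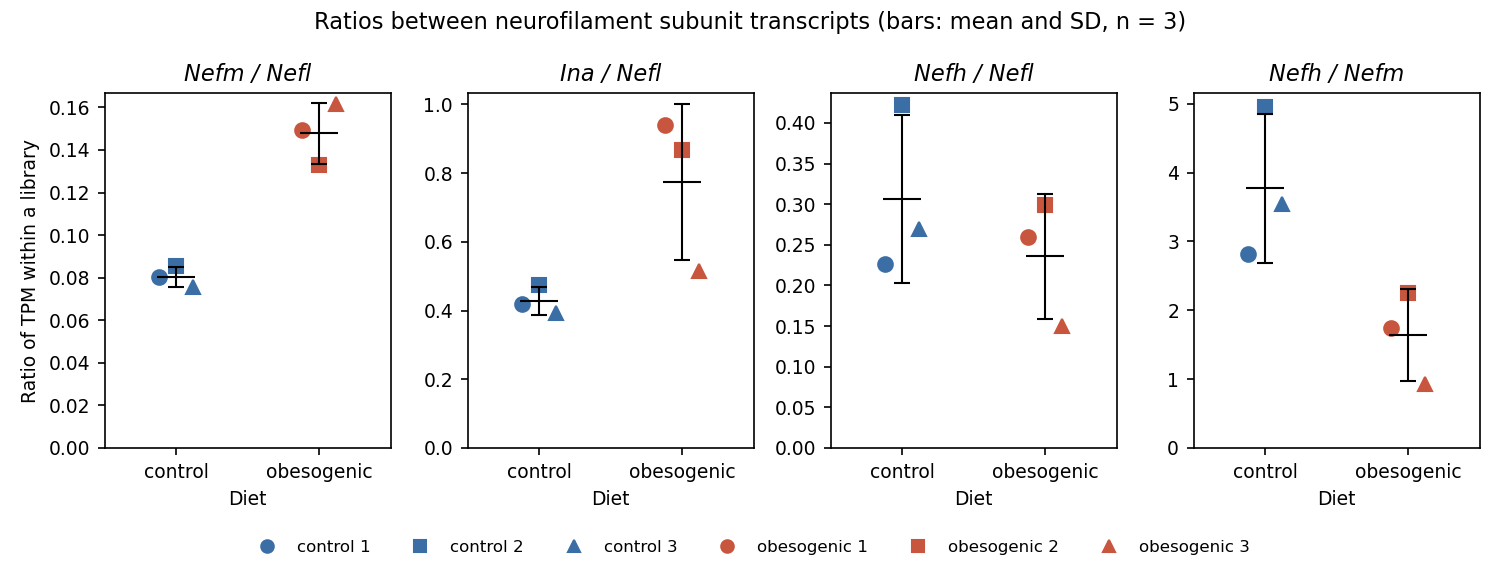
Ratio of TPM between 2 subunit genes within each library, by diet; bars are the mean and SD over 3 libraries and axes start at 0. Nefm to Nefl lies between 0.0757 and 0.0854 in control and between 0.133 and 0.161 in obesogenic libraries, and Nefh to Nefl overlaps.

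As shares of the summed TPM of Nefl, Nefm, Nefh, Ina and Prph, Nefl made up 54.5 ± 4.75% in control and 45.6 ± 6.14% in obesogenic libraries, and the diets overlapped. Ina made up 23.2 ± 0.935% and 34.4 ± 6.53%, and Nefh 16.3 ± 3.95% and 10.4 ± 2.34%, both without overlap. The sum itself was 24.0, 22.2 and 48.4 TPM under control diet, against 90.5, 21.8 and 284 TPM under obesogenic diet. The order of levels in control was Sncg, Nefl, Rbpms, Ina, Nefh, Thy1, Nefm, Prph, Pou4f1 and Pou4f2. Neighbours in that order overlapped except Rbpms and Ina, Thy1 and Nefm, and Nefm and Prph. Under the obesogenic diet the order was Nefl, Ina, Sncg, Thy1, Nefh, Nefm, Rbpms, Prph, Pou4f1 and Pou4f2, and of these neighbours only Prph and Pou4f1 did not overlap.

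At the level of transcripts, Nefl, Nefh, Ina, Sncg and Pou4f2 each had 1 listed transcript. Nefm-201 held 88.5% of Nefm and Prph-201 85.0% of Prph, of the mean level over the 6 libraries. Thy1 was spread over 6 transcripts: Thy1-201 held 58.5%, and Thy1-205, a coding transcript, was listed at 0 in every control library and at 5.50, 0.713 and 2.43 TPM in obesogenic libraries. Thy1-205 was not tested and was chosen after its values were seen. The share of all transcripts listed at 0 in every library of 1 diet was not computed. Other Thy1 transcripts were also at 0 in some libraries. Thy1-203 was at 3.85 TPM in control library 1, at 6.01 TPM in obesogenic library 3 and at 0 elsewhere. For Rbpms the listed transcripts were mostly not coding. Rbpms-208, annotated for nonsense-mediated decay, held 48.2%, Rbpms-215, a retained intron, 21.8%, and the coding Rbpms-213 18.6%. Rbpms-213 was at 4.18 TPM in control library 3, at 7.38 TPM in obesogenic library 3 and at 0 elsewhere. GENCODE M21 lists 4 further coding transcripts of these genes, 3 of Rbpms and 1 of Prph, that were not analysed here, so the Rbpms sum may not follow its coding message. Of 35408 transcripts tested, 2 passed (0.00565%), Ctbp1-202 and Gm9836-201, named after their values were seen, and 0 of the 8 of these genes did (smallest limma adjusted p 0.571, for the transcript of Ina).

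**Figure D4:**
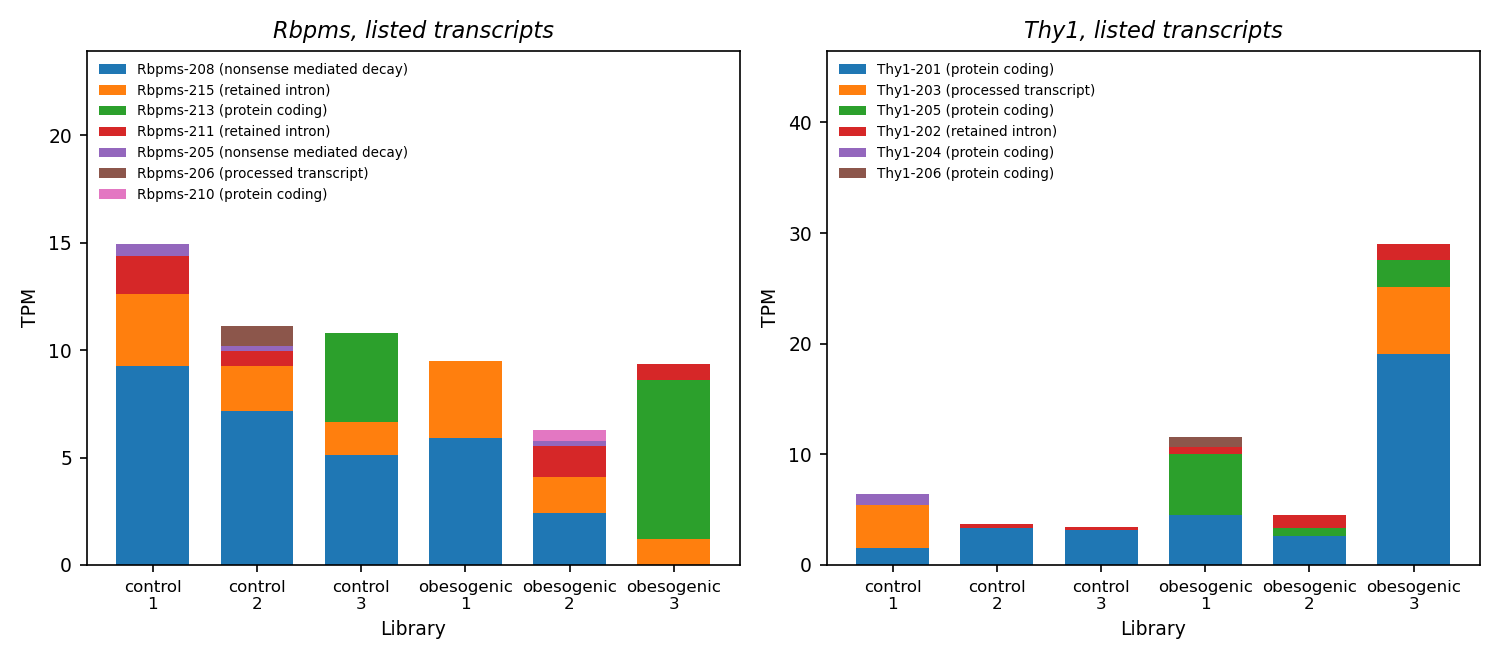
Stacked TPM of the listed transcripts of Rbpms and Thy1 in each library, with the annotated transcript type in the key. Rbpms-208 is at 9.25 TPM in control library 1 and at 0 in obesogenic library 3, where Rbpms-213 makes up 7.38 TPM. Thy1-205, which was not tested, appears in obesogenic libraries only, and Thy1-204 in control library 1 only.

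Many other neuronal genes, though not all, were high in the same libraries. In the list of 15 neuronal cytoskeleton and pan-neuronal genes, 12 had a positive log2 change, the median was 1.31, and 0 passed (smallest adjusted p 0.253). The 3 with a negative change were Stmn4, Elavl3 and Mapt (log2 change -0.50, -0.26 and -0.23), named after their values were seen. Stmn4 measured 394.6, 325.6 and 302.1 TPM under control diet, against 340.3, 195.9 and 204.1 TPM under obesogenic diet. Gap43, a growth cone protein gene chosen after its values were seen, measured 38.3, 31.3 and 48.6 TPM under control diet, against 159, 41.8 and 431 TPM under obesogenic diet. Stmn2, a microtubule regulator of axons, measured 14.2, 8.77 and 13.6 TPM under control diet, against 86.9, 22.6 and 256 TPM under obesogenic diet, without overlap (log2 change 2.65, adjusted p = 0.327). Tubb3, the neuronal beta-tubulin, also did not overlap, at 51.0, 40.9 and 74.9 against 86.5, 120 and 238 TPM (log2 change 1.31, adjusted p = 0.338). Syt1, a synaptic vesicle calcium sensor gene, had a log2 change of 2.94 (adjusted p = 0.253). Without obesogenic library 2, 11 of the 15 passed, all of them higher, against 5.12% of all genes called in that direction.

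Genes of other neuron types gave the setting of these values. Of 17 further ganglion cell genes 8 were tested, 4 higher and 4 lower, with a median log2 change of -0.06 and 0 past the threshold. Without obesogenic library 2, 3 of the 8 passed, all higher (Cartpt, Isl1 and Slc17a6), against 5.12% of all genes called in that direction. Cartpt and Slc17a6, with the largest log2 changes of that list, are also made by other neurons. Slc17a6, a vesicular glutamate transporter gene, measured 0.720, 0.315 and 1.97 TPM under control diet, against 9.73, 1.67 and 77.3 TPM under obesogenic diet. Cartpt, a neuropeptide gene of retina and hypothalamus, had a log2 change of 3.57 (SE 0.80, limma adjusted p = 0.236). Some developmental and subtype regulators of that list were low in every library, with Pou4f3 at 0.0593 TPM or below, Isl2 at 1.06 or below and Atoh7 at 1.115 or below. Others were not, with Foxp2 at 6.687 TPM or more and Ebf1 at 3.70 TPM or more in every library. These regulators were chosen after their values were seen. Isl1 measured 1.23, 0.0864 and 0 TPM under control diet, against 8.20, 0.896 and 4.79 TPM under obesogenic diet (log2 change 1.79, limma adjusted p = 0.407). Among 13 hypothalamic neuron genes, 11 were tested, all with a positive change, the median was 3.07 and 0 passed (smallest limma adjusted p 0.119). Without obesogenic library 2, 8 of the 11 passed, all higher, against 5.12% of all genes called in that direction. The summed TPM of the 13 was 815.5, 418 and 2212 in control and 8052, 1344 and 7141 in obesogenic libraries. It was mostly Avp (vasopressin), chosen after its values were seen. Avp carried that sum, and over the tested genes of the list the median difference from the control mean was 3.83 in obesogenic library 1, 0.99 in library 2 and 5.45 in library 3 on the log2 scale. The 8 cortical and forebrain genes summed to 3.29 to 14.5 TPM under control diet, against 22.0, 6.57 and 116 TPM under obesogenic diet. Of 13 genes of peripheral sensory and sympathetic neurons, Scn10a and Phox2a were among those at 0 in every library. The sum of the 13 was 2.42 to 4.93 TPM under control diet, against 35.5, 10.2 and 56.0 TPM under obesogenic diet. It was mainly Th and Scn9a, which central neurons also make. Prdm12, not tested and chosen after its values were seen, was at 0 in every control library and at 3.75, 0.364 and 4.89 TPM in obesogenic libraries. Calca measured 1.31, 1.19 and 0.460 TPM under control diet, against 3.96, 1.305 and 3.58 TPM under obesogenic diet. Without obesogenic library 2, 2 of the 3 tested peripheral neuron genes passed, both higher, against the same 5.12% of all genes. In that fit 0 of the 3 tested cortical and forebrain genes passed. The part of these neuron types in the filament values was not tested.

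**Figure D5:**
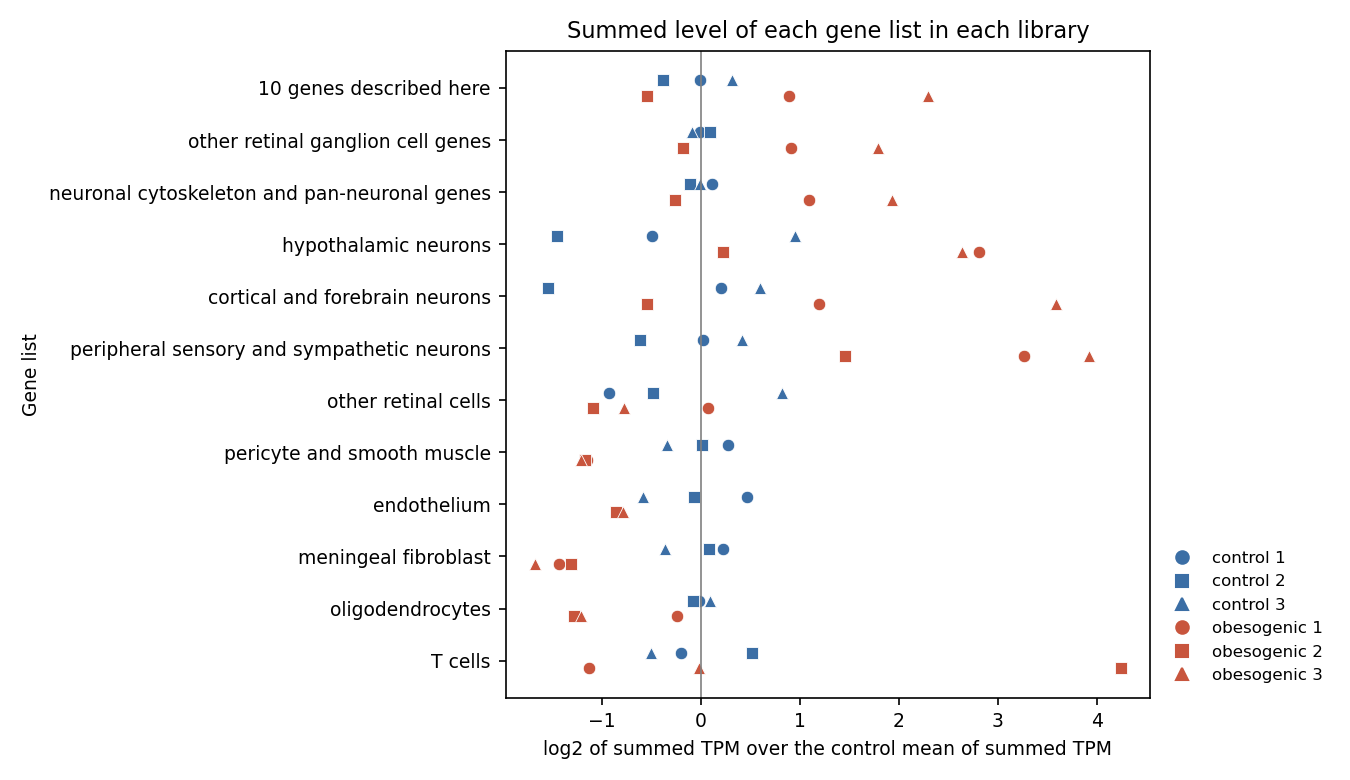
Log2 of the summed TPM of each gene list over the control mean of that sum, in every library; colour gives the diet and marker shape the library number. The 10 genes described here are at 0.89, -0.55 and 2.29 in obesogenic libraries 1, 2 and 3, and pericyte and smooth muscle genes at -1.15, -1.17 and -1.21.

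Genes of other retinal cells were not high where the filament genes were. The 13 genes of other retinal cells summed to 9.90, 13.5 and 33.3 TPM under control diet, against 19.9, 8.88 and 11.1 TPM under obesogenic diet, with Rpe65 at 0 in every library. Adipocyte genes, relevant to Sncg, summed to 0.786 to 10.5 TPM under control diet, against 0.442 to 1.07 TPM under obesogenic diet, with Lep and Cidec at 0 in all. The labelled tissue showed in myelin genes: 8 oligodendrocyte genes summed to 61630 to 69540 TPM under control diet, against 54910, 26760 and 28070 TPM under obesogenic diet, none of the 8 past the threshold. The 6 astrocyte genes summed to 3755 to 6316 TPM under control diet, against 2219 to 4366 TPM under obesogenic diet. The 8 meningeal fibroblast genes, another source of Thy1, summed to 1349 to 2021 TPM under control diet, against 542 to 700 TPM under obesogenic diet, without overlap, and their part in the Thy1 values was not tested. The 9 endothelial genes summed to 158 to 327 and 130 to 137 TPM.

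Genes of the machinery that moves, phosphorylates and degrades neurofilaments differed among themselves. Of 13 tested genes of this list, 8 had a positive and 5 a negative change, the median was 0.29 and 0 passed (smallest adjusted p 0.287). Without obesogenic library 2, 4 of the 13 passed, all higher (Dctn1, Trim2, Myo5a and Sarm1), against 5.12% of all genes called in that direction. Dctn1, a dynactin subunit gene, and Trim2, a ubiquitin ligase gene, were chosen after their values were seen. Dctn1 measured 48.6, 68.0 and 55.5 against 141, 36.8 and 220.7 TPM, high in obesogenic libraries 1 and 3 as the filament genes were. Kif5a, the axonal kinesin heavy chain gene, measured 410, 438 and 528 TPM under control diet, against 390, 161 and 316 TPM under obesogenic diet, lower without overlap (log2 change -0.75, SE 0.33, adjusted p = 0.475). Myo5a, a myosin motor gene, measured 20.3, 21.9 and 25.0 against 39.5, 33.1 and 48.5 TPM (log2 change 0.81, adjusted p = 0.287), and Gsk3b, a kinase gene, and Sarm1, an axon degeneration enzyme gene, had log2 changes of 0.58 and 0.77 (adjusted p = 0.424 and 0.484). Of the synuclein family, Sncb had a log2 change of 0.51 (adjusted p = 0.836). The 10 axon injury genes summed to 145 to 156 TPM under control diet, against 168 to 264 TPM under obesogenic diet, without overlap. Of these genes 8 were tested and 0 passed. Only 1 of the 8, Sox11, had every obesogenic library above every control library, as 8.88% of all genes tested did. Different genes carried the sum in different libraries. Jun, chosen after its values were seen, measured 97.1, 99.6 and 105 TPM under control diet, against 133.6, 119.8 and 92.45 TPM under obesogenic diet. Atf3, chosen after its values were seen like Sprr1a, was at 0 in 5 libraries and Sprr1a at 0.362 TPM or below, while Ecel1, an endopeptidase gene, measured 12.6, 1.26 and 2.18 against 44.9, 9.15 and 116 TPM (log2 change 3.04, adjusted p = 0.365).

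Likeness of pattern over the 6 libraries was measured as Pearson r of log2(TPM + 1) among genes of at least 10 TPM on average, as a description of points that share libraries and scaling. Nefl was closest to Rbmxl1, Mrpl30 and Ube2o (r from 0.993 to 0.995), with 233 genes above 0.95. Thy1 was closest to Snph, Nckipsd and Ctxn1 (r = 0.998), with 348 genes above 0.95, and Sncg to Tfdp1, Rbx1 and Mal2 (r from 0.976 to 0.985). Rbpms was closest to Cav2, a caveolin gene, Ano4 and Ubxn8 (r from 0.982 to 0.996). Among the members, Nefl with Nefm, Nefh and Ina gave r of 0.973, 0.974 and 0.942, and Nefl with Rbpms -0.009.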

How the data were processed

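The authors deposited 1 table of TPM values per transcript, made from poly(A) RNA (NucleoSpin RNA Plus XS extraction and the SMART-Seq mRNA kit, per the labels' protocols). Per the submitters' processing notes, featureCounts 2.0.3, Subread, STAR 2.7.9a and DRAGEN were used, in roles the notes leave out. Which of them computed TPM, on which genome build and annotation, is not given in the sources used here. Repeated lines of 415 transcripts, identical in value, were dropped and 109383 transcripts summed to 35850 genes. Listed TPM summed to 788456 to 832193 per library, and transcripts outside the table were not analysed here. TPM keeps no depth, so no counting interval was computed.

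Genes at 1 TPM or more in at least 3 of 6 libraries (14364) entered a limma fit (version 3.58.1, R 4.3.3; lmFit, eBayes with trend) of log2(TPM + 1), as obesogenic minus control, two-sided, with Benjamini-Hochberg adjustment over all genes and a threshold of 0.05. Transcripts were tested likewise. Ratios used an exact permutation test. The genes named are the members, up to 4 genes of smallest unadjusted p per list with some at 0, and the 3 genes most like each of 4 members; others are said to be chosen after their values were seen. Members and lists were chosen with earlier results of these data known. Some genes of these lists are not reported here. Alternatives covered the pseudocount, filter, scaling, sample number as a block, array weights, eBayes settings, the most abundant transcript and each library left out. Figures were drawn with matplotlib 3.10.9.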

Additional observations from a re-analysis of the deposited data

How the results depend on the processing

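The count of genes called depended on the libraries. It was 1 over all libraries, 0 with a pseudocount of 5 TPM or no filter on low values, and 2064 with array weights, which give some libraries less weight. With 1 library left out it ranged from 0 to 914, the highest without obesogenic replicate 2, and was 0 without control replicate 1 or 3 or obesogenic replicate 1 or 3. Members called were 0 over all libraries, 3 with array weights (Ina, Nefm and Thy1, adjusted p = 0.00922, 0.0361 and 0.039) and 0 to 1 with a library left out. Transcripts called were 2 over all libraries, 0 with a pseudocount of 5 TPM, with no filter and with the replicate block, 1 with a pseudocount of 0.1 TPM, a filter at 5 TPM or rescaling without immunoglobulin genes, 6 without the eBayes trend and 0 to 4 with a library left out. No member transcript passed under any of these alternatives. Apart from leaving out libraries and array weights, the cause of these shifts was not tested.

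Of 125 alternative values of the 7 member log2 changes, 120 kept their direction and their side of the threshold, 4 newly passed and 1 reversed, Sncg, -0.16 without obesogenic replicate 3 and 0.19 over all libraries (leave-one-out range -0.16 to 0.52, for Sncg-201 too). For the 4 subunit ratios without overlap, leaving out a library could not reverse the direction. In ratios without Nefm the most abundant transcript was the only listed transcript, so that alternative could not differ. With many outcomes fixed in this way, the subunit ratios kept their direction in 41 of 42 alternatives added after seeing the data. The exception was Nefm to Ina without obesogenic replicate 3 (-0.27 against 0.07 on the log2 scale, leave-one-out range -0.27 to 0.25), and Nefm to Nefl moved from 0.88 to 1.04 with the most abundant transcripts. The Rbpms change was -1.47 with its most abundant transcript in place of the sum, which that transcript's own values give. With a filter at 5 TPM Nefm was not tested. The median change of all genes was 0.08 as deposited, and quantile normalization moved it to -0.03; no member reversed under any scaling.

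Whether the numbers shared by control and obesogenic samples pair them is not settled by these values. Same-numbered samples had deviations correlated at 0.008, 0.177 and 0.132, against -0.169 to 0.107 for samples of different number. Each control sample correlated best with its own number, as did obesogenic samples 2 and 3. Obesogenic sample 1 correlated best with control sample 3 (0.107). These correlations are weak, and the labels state no pairing. With the replicate block 0 members and 1 gene were called, a higher one in place of the lower gene Gm9836 called over all libraries, and leaving out control replicate 2 likewise gave 1 higher gene. With the block Ina had a log2 change of 1.90 (SE 0.47, against 0.74 without the block, limma adjusted p = 0.263).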
